A study of Mus musculus with 23 samples.

Results

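The replication-dependent histone genes encode the bulk of the linker histone H1 and of the core histones H2A, H2B, H3 and H4. They were taken here as the rows of the count table whose symbols start with Hist1h, Hist2h, Hist3h or Hist4h. Of 53607 gene rows, 70 carried such a symbol; 1 was dropped because its symbol marks a pseudogene (-ps), and 0 were under 10 counts in every library, which left 69 genes. These comprised 6 genes of H1, 20 of H2A, 18 of H2B, 12 of H3 and 13 of H4. The H2A rows Hist1h2aj and Hist1h2al are annotated as pseudogenes, but their symbols do not mark this and they were kept. All 69 passed the filter on low counts and were among the 20372 genes tested. The rule uses the symbols and the count minimum and no contrast between groups.

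Histone genes of this kind are transcribed mainly in S phase, when new DNA has to be packed into nucleosomes. Their mRNAs carry no introns and, in place of a poly(A) tail, end just after a conserved stem-loop that is bound by SLBP and cut with the help of the U7 snRNP, whereas NPAT, a substrate of cyclin E and CDK2, drives their transcription. Most of the genes lie in clusters, often as pairs of H2A and H2B genes that face away from each other across a shared promoter. Naive embryonic stem cells divide fast and spend much of their cycle in S phase. The libraries were depleted of ribosomal RNA and not selected on poly(A), so that tail-less mRNAs were kept.

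Mouse embryonic stem cells of a Raslox/lox background were sequenced. All 8 groups were H-Ras-/- and N-Ras-/-, and all carried Ubiq-CreERT2, a Cre recombinase that 4-hydroxytamoxifen activates. ERF, an ETS-domain repressor that is held inactive by ERK signalling, was either wild type (ERF WT) or knocked out (ERF KO), and RAS was either present or deleted by 4-hydroxytamoxifen for 6 days. Cells were kept in 2iL (N2B27 with the MEK inhibitor PD0325901, the GSK3 inhibitor CHIR99021 and LIF), a medium for naive cells, or were given FA (FGF2 and Activin A on fibronectin) for 48 hours, a medium for differentiation to epiblast-like cells. Below, control cells are ERF WT with RAS present, RAS-deleted cells are ERF WT with the drug, ERF-knockout cells have RAS present, and double-mutant cells are ERF KO with the drug. Each group held 3 libraries, except that control cells in FA held 2. All libraries with RAS deleted, and no others, received the drug, so drug and deletion cannot be told apart, and the number of clones behind the ERF-knockout line is not given in the labels. Nor do the labels say that libraries of a group came from separate cultures, so p-values measure the spread between libraries, which may be technical.

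The 23 libraries held 16.2 to 29.9 M counts each, of which the histone genes took 0.591 to 1.13%. Levels are given in CPM, with each library's size adjusted by TMM. The markers matched the labels in part: 6 embryonic stem cell markers (Pou5f1, Sox2, Nanog, Zfp42, Esrrb and Klf4) summed to 2089 to 2463 CPM in the 2iL libraries and to 538 to 639 CPM in FA, but to 1476 to 2075 CPM in the RAS-deleted FA libraries. In FA, 4 epiblast-like markers (Fgf5, Pou3f1, Otx2 and Dnmt3b) summed to 548 to 619 CPM in control cells, 343 to 401 CPM in ERF-knockout, 462 to 487 CPM in double-mutant and 102 to 291 CPM in RAS-deleted cells, against 43.1 to 72.5 CPM in 2iL. RAS-deleted cells in FA therefore stood nearer to 2iL than the other FA groups by both lists. Among markers of other cell types, 6 fibroblast markers summed to 2.11 to 8.41 CPM, with 2 or 3 of the 6 at 0 throughout a group, and 6 primitive endoderm markers summed to 103 to 172 CPM in control cells in FA and 14.2 to 19.05 CPM in RAS-deleted cells in FA. The endoderm sum was also 103 to 104 CPM in ERF-knockout against 22.1 to 32.4 CPM in double-mutant cells in FA, and 27.6 to 67.1 CPM in ERF-knockout against 13.8 to 21.4 CPM in control cells in 2iL. In 2iL, 6 trophoblast markers summed to 115 to 127 CPM in control and 61.5 to 64.3 CPM in ERF-knockout cells, and to 111 to 125 CPM in RAS-deleted and 68.7 to 72.0 CPM in double-mutant cells. In FA, 5 neural markers summed to 71.9 to 87.2 CPM in control, 56.0 to 72.5 CPM in ERF-knockout, 78.3 to 100.5 CPM in RAS-deleted and 137 to 147 CPM in double-mutant cells. The control range overlapped those of ERF-knockout and RAS-deleted cells. In 2iL the neural sum was 45.9 to 78.4 CPM in control against 31.1 to 35.6 CPM in ERF-knockout cells, and 48.3 to 69.04 CPM in RAS-deleted against 38.2 to 40.2 CPM in double-mutant cells. The endoderm sum was 12.0 to 18.4 CPM in RAS-deleted against 18.8 to 26.5 CPM in double-mutant cells in 2iL, and the trophoblast sum in FA was 40.6 to 49.3 CPM in control, 55.7 to 59.8 CPM in RAS-deleted and 34.5 to 37.5 CPM in double-mutant cells. Their part in the histone results was not tested. Erf was still counted in ERF-knockout libraries (96.1 to 129 CPM in ERF-knockout 2iL libraries against 70.6 to 85.7 CPM in control 2iL libraries), so its counts do not check that label.

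The stem-loop that replaces the poly(A) tail was looked for first, since it is what sets these mRNAs apart. The motif, GGNNC followed directly by TTTTNA and by GNNCC, was found on the sense strand of an annotated transcript in 44 of the 69 genes and in 28 of 21810 other protein-coding genes (0.128%), using GENCODE M21 transcripts of GRCm38. Of the 44, 26 held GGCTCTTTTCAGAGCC. H4 genes carried forms of their own: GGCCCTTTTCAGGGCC was held by 7 genes, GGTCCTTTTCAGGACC by 2 and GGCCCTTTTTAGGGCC by 2. The examples below were chosen to show 1 of each main form, in genes the results turn on; capitals mark the stem-loop motif, and each has 5 flanking bases on either side, read 5′ to 3′ on the sense strand.
Hist3h2ba: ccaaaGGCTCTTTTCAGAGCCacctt
Hist1h3e: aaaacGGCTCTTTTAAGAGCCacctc
Hist1h4n: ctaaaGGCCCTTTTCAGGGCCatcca
Hist1h4j: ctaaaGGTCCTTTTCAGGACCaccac
Hist2h4: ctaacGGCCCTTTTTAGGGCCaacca
The annotated transcript ended within 100 bases of the stem-loop in 22 genes and ran on for more than 100 bases in 22 others. The remaining 25 had no such motif in their annotated transcripts. Several of these transcripts are short, such as those of Hist1h4k (312 bases) and Hist1h3h (411 bases). A missing motif therefore does not show that the mRNA lacks the stem-loop. Hist3h2ba ran on for 169 bases past the stem-loop, Hist1h3e for 369 and Hist2h4 for 1257, against 31 bases for Hist1h4n. The counts do not separate the short from the long form.

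Promoters were available from RefSeq (GRCm38.p6) for 62 of the 69 genes, as 250 bases before to 50 bases after the gene start. On either strand, TATAAA was present in 35 of the 62 (13.62% of all 32851 promoters), CCAAT in 53 (37.41% of all) and the octamer ATTTGCAT, bound by OCT1 and its cofactor in H2B promoters, in 13 (1.74% of all). The octamer occurred in 7 of 18 H2A and 6 of 16 H2B promoters and in no H1, H3 or H4 promoter, and CCAAT was found in 3 of 12 H4 promoters against all 6 H1, 18 H2A, 16 H2B and 10 H3 promoters. The 2 promoters below belong to genes among the 3 that fell most on RAS deletion in FA, Hist1h2aa (chr13:23934187-23934486, plus strand) and Hist3h2ba (chr11:58948661-58948960, plus strand); capitals mark the 3 motifs on either strand.
Hist1h2aa: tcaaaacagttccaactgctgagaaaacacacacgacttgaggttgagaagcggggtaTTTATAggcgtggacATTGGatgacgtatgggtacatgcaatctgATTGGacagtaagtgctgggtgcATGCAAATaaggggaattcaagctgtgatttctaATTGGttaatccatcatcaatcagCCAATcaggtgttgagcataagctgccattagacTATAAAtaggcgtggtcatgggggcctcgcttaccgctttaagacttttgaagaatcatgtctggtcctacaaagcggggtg
Hist3h2ba: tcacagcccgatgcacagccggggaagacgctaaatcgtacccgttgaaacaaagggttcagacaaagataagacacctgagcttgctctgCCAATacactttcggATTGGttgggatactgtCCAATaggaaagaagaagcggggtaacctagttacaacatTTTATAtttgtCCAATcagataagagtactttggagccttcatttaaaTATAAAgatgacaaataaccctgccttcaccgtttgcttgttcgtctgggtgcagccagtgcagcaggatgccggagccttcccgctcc
Hist1h2aa is an H2A gene known from testis, and its divergent partner is the testis H2B gene Hist1h2ba, whose start lies 306 bases away on the other strand. It was 1 of 14 divergent pairs among the histone genes. A match of letters is a description and not a binding site.

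Read counts of these genes carry a limit of their own. A median of 38.1% of a gene's 31-base stretches occurred in no other annotated gene, 15 genes had under 10% and 25 had over 50%. Hist2h2aa1, Hist2h2aa2, Hist2h2bb, Hist2h3b and Hist2h3c1 had 0.0%, so their separate levels are uncertain, as are those of Hist1h2bq against Hist1h2br and of Hist1h2ap against Hist1h2ao. Of the genes followed below, Hist1h1c, Hist1h2be, Hist2h4, Hist1h2aa, Hist3h2ba and Hist1h4a had 88.6, 81.8, 97.4, 71.7, 62.8 and 52.1%, against 35.8% for Hist2h3c2 and 15.6% for Hist1h3e. Hist3h2ba shared 32.9% with the pseudogene left out, Hist3h2bb-ps. The annotated span of Hist1h2be (chr13:23583670-23621124, minus strand) ends inside Hist1h1e (chr13:23620629-23622558) on the same strand, so reads of the 2 may be shared where they overlap.

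Per kilobase of effective length and averaged over the 8 groups, the highest levels in each class were those of Hist1h3h (2445 CPM per kb), Hist1h4k (1886), Hist1h2bq (1304), Hist1h2ap (1235) and Hist1h1a (579). Behind these stood Hist1h4n (1688 CPM per kb) and Hist1h4h (867) for H4, Hist1h2bk (770) and Hist2h2bb (644) for H2B, Hist1h2ah (737) and Hist2h2aa1 (621) for H2A, Hist2h3b (652) and Hist1h3e (642) for H3, and Hist1h1c (354) and Hist1h1b (244) for H1. A few genes lay near the floor: Hist2h3c1 (0.169 CPM per kb) and Hist2h2be (0.188) were the lowest. The share of each class in the histone CPM moved within a few percentage points, with group means from 15.996 to 19.5% of histone CPM for H1, 17.8 to 20.6% for H2A, 15.9 to 19.8% for H2B, 21.8 to 24.3% for H3 and 20.5 to 23.9% for H4. In 2iL the H2B share was 16.2 to 16.6% in RAS-deleted and 18.7 to 20.99% in double-mutant libraries and the H4 share 22.7 to 23.9% and 20.5 to 20.6%, with no overlap.

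Summed over the 69 genes, control cells in 2iL reached 8213, 8638 and 7688 CPM (8179 ± 476, SD, n = 3), and RAS-deleted cells in 2iL reached 6409, 6797 and 6035 CPM. ERF-knockout cells in 2iL reached 8964, 10336 and 9883 CPM, and double-mutant cells in 2iL 11175, 11766 and 12313 CPM (11751 ± 569, SD, n = 3). The double-mutant libraries were thus the highest in 2iL and the RAS-deleted ones the lowest, with no overlap between these groups and the others. In FA, control cells reached 10332 and 10275 CPM, RAS-deleted cells 7564, 6427 and 6380 CPM, ERF-knockout cells 8417, 7402 and 8026 CPM, and double-mutant cells 8932, 9365 and 9001 CPM. Here control cells were the highest, and the ERF-knockout and RAS-deleted ranges overlapped. In bulk RNA, fewer cells in S phase and less histone mRNA per cell cannot be told apart.

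**Figure D1:**
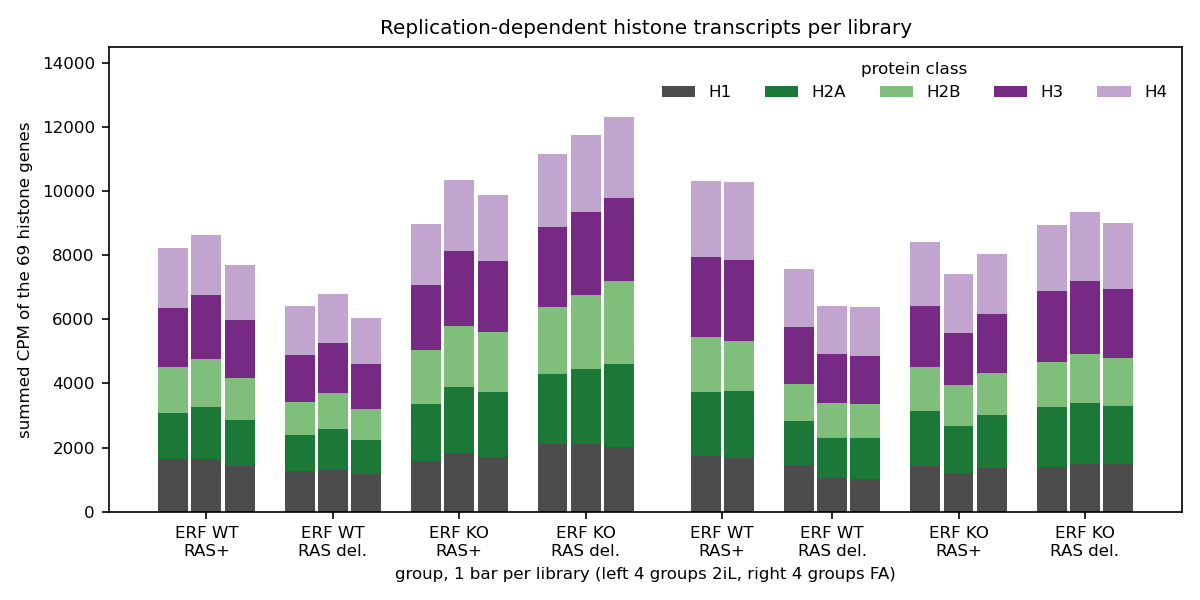
Summed level of the 69 histone genes in each of the 23 libraries (CPM, axis from 0), stacked by protein class, with the libraries in their 8 groups. Double-mutant libraries in 2iL stood highest (11175 to 12313 CPM) and RAS-deleted libraries lowest in 2iL; in FA, RAS-deleted replicate 1 (7564 CPM) lay above ERF-knockout replicate 2 (7402 CPM).

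Deletion of RAS in ERF WT cells was followed by lower histone mRNA in both media. In FA, 55 of the 69 genes fell and 0 rose at an adjusted p under 0.05 (edgeR quasi-likelihood test, Benjamini-Hochberg over all 20372 genes, used for every adjusted p here), where 21.5% of all genes tested fell and 19.8% rose. The median log2 fold change was -0.59 against 0.0014 for all genes, and 13 of the 55 fell by at least 2-fold (share of all genes not counted). In 2iL, 35 fell and 0 rose, against 3.15% of all genes that fell and 2.55% that rose, with a median of -0.39. Falls were spread over the classes: in FA 5 of 6 H1, 14 of 20 H2A, 16 of 18 H2B, 9 of 12 H3 and 11 of 13 H4 genes fell, and in 2iL 2, 9, 12, 5 and 7. The summed level was 34.1% lower in FA and 21.6% lower in 2iL. The count in 2iL was 21 without control replicate 1 or replicate 2 and 18 without RAS-deleted replicate 3.

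The deepest falls in FA were in the testis pair (Hist1h2aa at chr13:23934462-23934851, GRCm38) and in Hist3h2ba, an H2B gene of the small Hist3 cluster (chr11:58948920-58949533). Hist3h2ba stood at 28.2 and 30.2 CPM in control cells in FA and at 3.99, 4.30 and 4.64 CPM in RAS-deleted cells, a log2 fold change of -2.76 (SE 0.19, adjusted p = 1.1e-10). Hist1h2aa stood at 18.7 and 16.4 CPM against 1.93, 2.19 and 2.12 CPM (log2 fold change -3.07, SE 0.25, adjusted p = 1.5e-09). For both genes the groups lay far apart, and the RAS-deleted level of Hist1h2aa in FA overlapped its level in RAS-deleted cells in 2iL (1.45 to 2.15 CPM). Hist1h2ba stood at 9.25 and 7.77 CPM against 1.27, 0.729 and 0.971 CPM (log2 fold change -3.10, SE 0.36, adjusted p = 3.7e-07), and Hist1h1t, the testis H1, fell by 1.32 on the log2 scale (SE 0.25, adjusted p = 1.3e-04).

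Falls were smaller in other genes. Hist1h3e, an H3 gene at chr13:23561534-23562369, went from 510 and 582 CPM to 259, 245 and 235 CPM in FA (log2 fold change -1.15, SE 0.08, adjusted p = 9.8e-11) and from 406, 393 and 360 to 253, 259 and 236 CPM in 2iL (log2 fold change -0.63, SE 0.07, adjusted p = 2.5e-05). The RAS-deleted ranges in the 2 media overlapped. Hist1h2be, a low-level H2B gene, fell by 1.45 on the log2 scale in FA (SE 0.18, adjusted p = 9.8e-07) and by 0.75 in 2iL (SE 0.19, adjusted p = 0.021), and Hist1h4n fell by 0.73 (SE 0.09, adjusted p = 1.2e-06) and 0.57 (SE 0.09, adjusted p = 3.9e-04). In 2iL the largest falls were Hist1h2ba (log2 fold change -1.67, SE 0.41, adjusted p = 0.020) and Hist3h2ba (-1.02, SE 0.21, adjusted p = 0.0072).

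The 14 genes not called in FA included the abundant Hist1h1c, Hist1h4a and Hist2h2aa2. Hist1h1c, a linker histone gene that also makes polyadenylated mRNA, stood at 362 and 440 CPM in control cells and at 538, 357 and 304 CPM in RAS-deleted cells, with a log2 fold change of -0.0049 (SE 0.17, adjusted p = 0.99). Hist1h4a stood at 213 and 150 against 212, 210 and 204 CPM (log2 fold change 0.20, SE 0.14, adjusted p = 0.28). For both genes the ranges overlapped. Hist2h2aa2 had a log2 fold change of -0.27 (SE 0.14, adjusted p = 0.13). It has 0.0% unique 31-base stretches, and its sum with Hist2h2aa1 was 27.5% lower, with no overlap. Hist1h4m was at 0 in most libraries and reached 29.8 CPM in RAS-deleted replicate 1 in FA alone; it was called in no comparison.

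**Figure D2:**
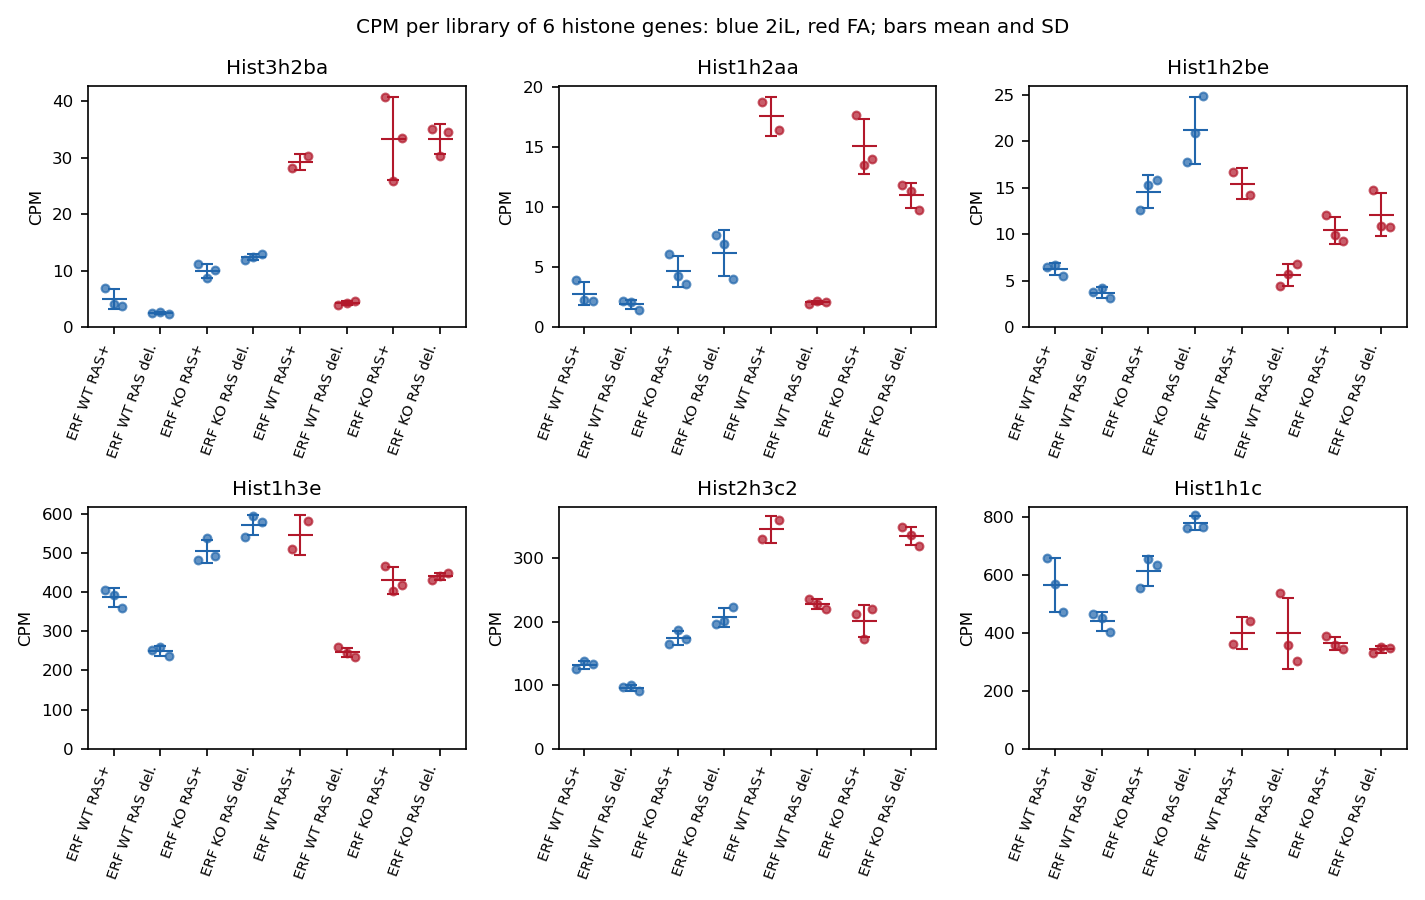
CPM per library (points) in the 8 groups for Hist3h2ba, Hist1h2aa, Hist1h2be, Hist1h3e, Hist2h3c2 and Hist1h1c, each on its own axis. RAS-deleted cells in FA lay within or next to the range of control cells in 2iL for Hist3h2ba (3.99 to 4.64 CPM) and Hist1h2aa (1.93 to 2.19 CPM), while Hist1h1c did not separate control from RAS-deleted cells in FA.

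Without ERF, deletion of RAS was not followed by a fall in the summed level or the median. In FA, 18 genes rose and 2 fell in double-mutant against ERF-knockout cells, where 12.7% of all genes rose and 13.7% fell; the median log2 fold change was 0.18, and the summed level was 14.5% higher. In 2iL, 6 rose and 0 fell, against 0.677% of all genes that rose and 0.628% that fell, with a median of 0.26 and a sum 20.8% higher. The 6 were Hist1h2ah, Hist1h2bc, Hist1h2bm, Hist1h2bp, Hist1h4i and Hist2h2bb, with log2 fold changes of 0.35 to 0.44. Counts for this contrast moved with single libraries and settings. With a replicate block more genes were called in both media, as given with the processing. In 2iL the count was 0 without ERF-knockout replicate 1 or double-mutant replicate 2 or 3, 1 without ERF-knockout replicate 2 or 3, and 22 with no filter on low counts, 18 when only these groups were fitted and 16 by DESeq2. In FA it was 9 without double-mutant replicate 1 or ERF-knockout replicate 2, 11 without double-mutant replicate 2 and 13 without ERF-knockout replicate 3.

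In FA, 6 of 10 Hist2 genes on chromosome 3 and 12 of 56 Hist1 genes rose; this difference was not tested. Hist2h3c2, an H3 gene at chr3:96238108-96239127, stood at 212, 172 and 219 CPM in ERF-knockout cells and at 348, 336 and 319 CPM in double-mutant cells (log2 fold change 0.73, SE 0.08, adjusted p = 7.6e-07). Hist2h4 stood at 69.9, 46.6 and 67.6 against 121, 124 and 110 CPM (log2 fold change 0.95, SE 0.12, adjusted p = 4.3e-06). Neither gene's ranges overlapped. Hist2h2ac (log2 fold change 0.96, SE 0.18), Hist2h3b (0.63, SE 0.09) and Hist2h2bb (0.58, SE 0.10) rose too. Hist2h3b and Hist2h2bb have 0.0% unique 31-base stretches, so their separate rises are uncertain. The sum of Hist2h3b, Hist2h3c1 and Hist2h3c2 was 60.9% higher, with no overlap. Hist1h2an (0.83, SE 0.23), Hist1h3g (0.61, SE 0.12) and Hist1h4a (0.59, SE 0.13) of the Hist1 cluster also rose. The 2 genes that fell were of the testis group, Hist1h1t (log2 fold change -0.83, SE 0.22, adjusted p = 0.0086) and Hist1h2ba (-0.78, SE 0.29, adjusted p = 0.049). Hist3h2ba stood at 40.7, 25.9 and 33.5 against 35.1, 30.3 and 34.5 CPM, with a log2 fold change of -0.0042 (SE 0.15, adjusted p = 0.99).

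The difference between the RAS effects with and without ERF was tested itself. In FA the RAS effect was higher in ERF KO than in ERF WT cells for 55 of the 69 genes and lower for 0, against 14.4% and 13.6% of all genes, with a median difference of 0.81 on the log2 scale. The difference was 2.75 for Hist3h2ba (SE 0.24, adjusted p = 2.7e-08), 2.62 for Hist1h2aa (SE 0.32, adjusted p = 2.2e-06), 1.55 for Hist2h4 (SE 0.17, adjusted p = 5.4e-07) and 1.18 for Hist1h3e (SE 0.11, adjusted p = 2.9e-08). For Hist1h1c it was -0.077 (SE 0.23, adjusted p = 0.84). In 2iL, a comparison added after the data were seen, the effect was higher for 37 genes and lower for 0, against 0.957% and 0.614% of all genes, with a median difference of 0.67. Of the 195 genes higher in this test in the whole table, 37 were thus histone genes. The 2iL count was 23 without RAS-deleted replicate 3, 24 without ERF-knockout replicate 1 and 21 without double-mutant replicate 2.

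**Figure D3:**
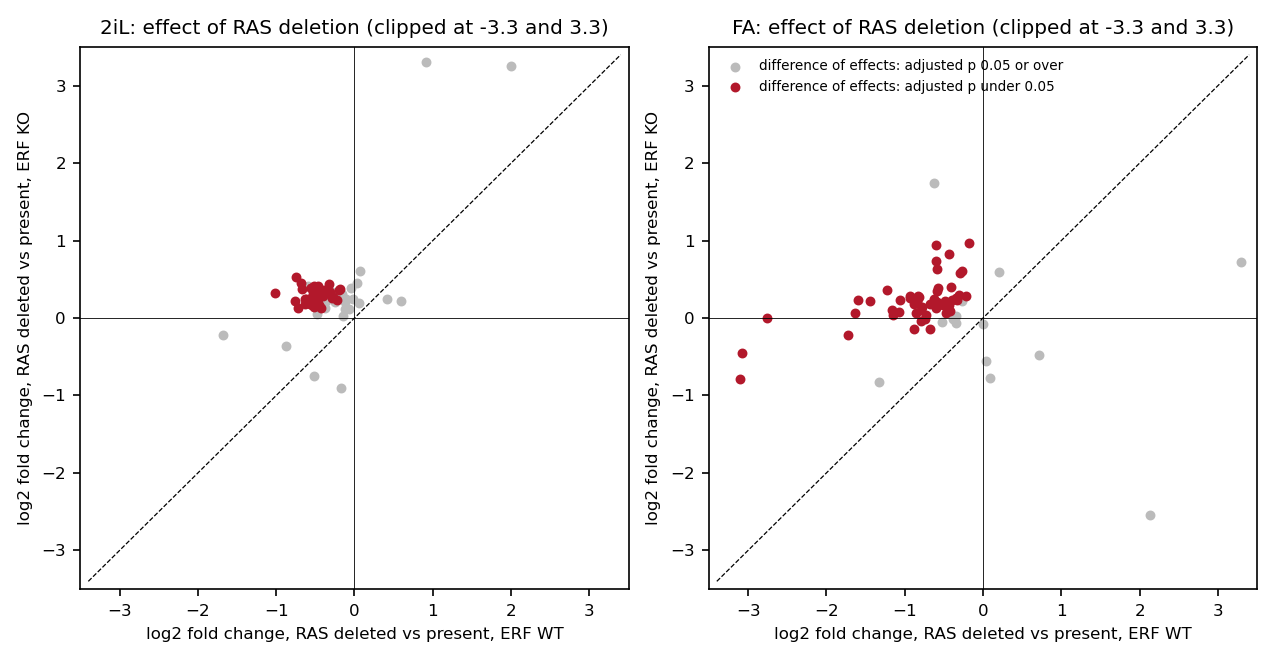
Log2 fold change after RAS deletion for each of the 69 genes in ERF WT cells (x axis) against ERF KO cells (y axis), in 2iL and in FA, with values past 3.3 drawn at that value, red for genes whose RAS effect differed by ERF at an adjusted p under 0.05, and a dashed line of equal effects. The 2 axes share no library, and most points lie left of 0 on the x axis and above 0 on the y axis.

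Histone mRNA was higher in ERF KO cells in 2iL. With RAS present, 29 genes rose and 1 fell, against 13.3% of all genes that rose and 14.6% that fell, with a median of 0.26 and a sum 18.9% higher. With RAS deleted, 57 rose and 1 fell, against 19.2% and 19.9%, with a median of 0.92 and 27 genes changed by at least 2-fold (share of all genes not counted). This was the comparison with the most histone genes called among the 12 that change 1 factor. The summed level was 83.2% higher, by class 122% for H2B, 107% for H2A, 73.9% for H3, 66.5% for H1 and 60.9% for H4. These contrasts share no library with each other, but both share libraries with the RAS comparisons above.

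Hist1h2be showed the largest rise in both. It stood at 6.51, 6.67 and 5.53 CPM in control cells, 12.6, 15.3 and 15.9 CPM in ERF-knockout cells, 3.82, 4.21 and 3.10 CPM in RAS-deleted cells and 17.8, 20.9 and 24.9 CPM in double-mutant cells in 2iL. The 4 ranges followed one another without overlap. The log2 fold changes of ERF knockout were 1.23 with RAS (SE 0.17, adjusted p = 9.8e-06) and 2.51 without (SE 0.18, adjusted p = 4.2e-10). Hist3h2ba rose by 0.98 (SE 0.18, adjusted p = 3.0e-04) and 2.32 (SE 0.20, adjusted p = 9.6e-09), from 2.53, 2.69 and 2.27 CPM to 11.9, 12.5 and 13.01 CPM without RAS. Hist1h2bq, an abundant H2B gene, stood at 185, 196 and 160 CPM in RAS-deleted cells and 446, 545 and 582 CPM in double-mutant cells (log2 fold change 1.54, SE 0.12, adjusted p = 1.4e-09), and its sum with Hist1h2br was 153% higher. Hist1h2bc, known also as a polyadenylated transcript, rose by 0.62 (SE 0.08, adjusted p = 3.6e-06) and 1.35 (SE 0.08, adjusted p = 5.1e-11).

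The gene that fell was Hist1h4a in both contrasts. It stood at 133, 176 and 179 CPM in control cells against 100, 127 and 124 CPM in ERF-knockout cells (log2 fold change -0.47, SE 0.13, adjusted p = 0.0078), and at 237, 207 and 207 against 126, 137 and 153 CPM without RAS (-0.65, SE 0.13, adjusted p = 3.7e-04). Its highest 2iL values were those of RAS-deleted cells, but their difference from control cells did not pass the test (log2 fold change 0.42, SE 0.13, adjusted p = 0.055); Hist1h4i, Hist1h4k and Hist1h4n were lowest in these cells. Hist1h1b, a linker histone gene, stood at 140, 142 and 133 against 156, 137 and 135 CPM without RAS, with a log2 fold change of 0.047 (SE 0.15, adjusted p = 0.83).

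In FA the ERF effect had opposite directions with and without RAS. With RAS present, 0 genes rose and 29 fell, against 4.37% of all genes that rose and 5.4% that fell, with a median of -0.37 and a sum 22.9% lower. The largest falls were Hist2h4 (log2 fold change -0.89, SE 0.13, adjusted p = 2.0e-04) and Hist2h3c2 (-0.78, SE 0.09, adjusted p = 1.2e-05), from 330 and 360 CPM to 212, 172 and 219 CPM for the latter. The count was 4 without control replicate 1, which leaves 1 control library in FA, 11 without ERF-knockout replicate 2 and 18 when only these groups were fitted. With RAS deleted, 48 rose and 1 fell, against 21.6% and 21.3%, with a median of 0.40 and a sum 34.0% higher. Hist3h2ba rose most (log2 fold change 2.95, SE 0.18, adjusted p = 1.2e-11), followed by Hist1h2aa (2.40, SE 0.24, adjusted p = 2.6e-08) and Hist1h2ba (2.27, SE 0.34, adjusted p = 1.1e-05). The gene that fell was Hist1h2aj, a row annotated as a pseudogene.

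The ERF effect itself differed between the media. With RAS present, the change from 2iL to FA was lower in ERF KO than in ERF WT cells for 38 genes and higher for 0, against 4.47% and 4.87% of all genes, with a median difference of -0.62. It was -1.80 for Hist1h2be (SE 0.24, adjusted p = 4.6e-05) and -1.18 for Hist2h3c2 (SE 0.12, adjusted p = 1.5e-06). With RAS deleted it was lower for 34 and higher for 3, against 13.8% and 12.6% of all genes. The 3 were Hist1h1b (0.61, SE 0.21, adjusted p = 0.037), Hist1h4a (0.61, SE 0.18, adjusted p = 0.015) and Hist1h4j.

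**Figure D4:**
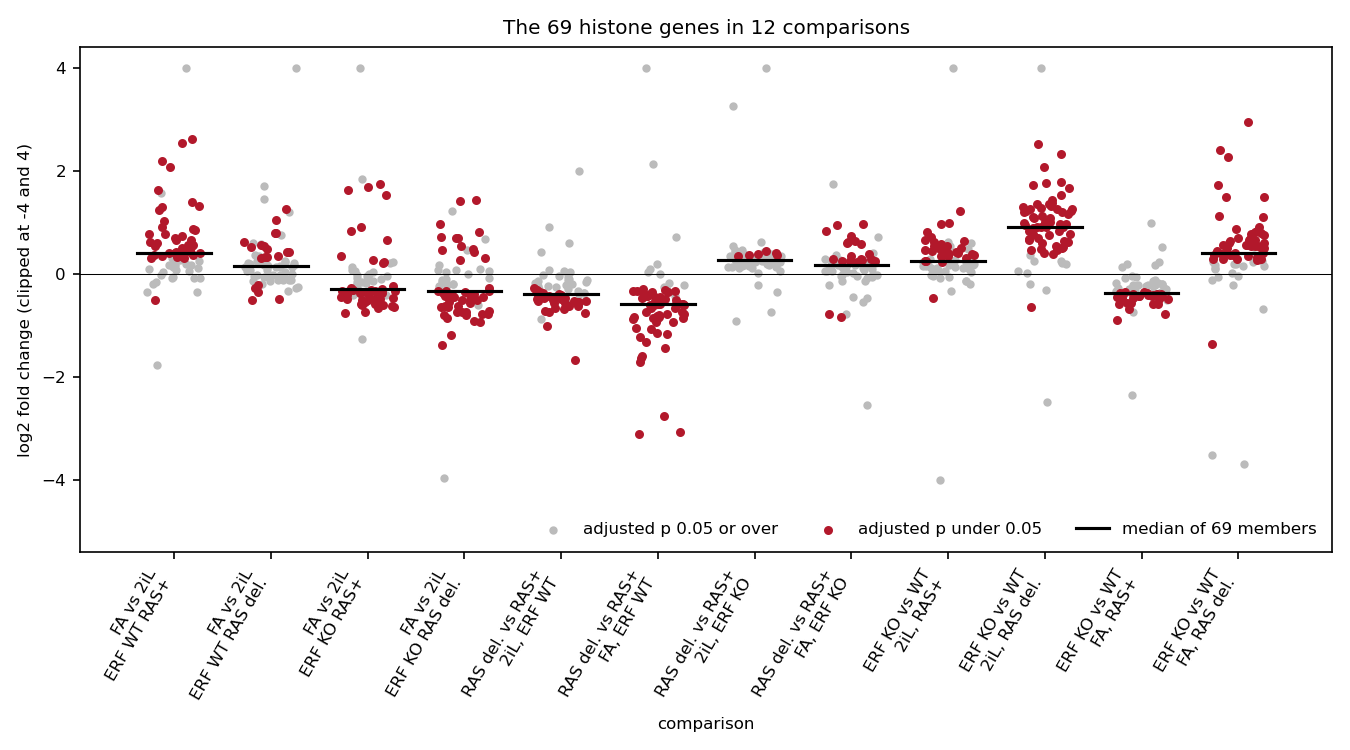
Log2 fold changes of the 69 genes (points) in the 12 comparisons that change 1 factor, with called genes in red, the median drawn as a bar and values past 4 drawn at 4. The RAS effect lies below 0 in ERF WT cells (medians -0.39 in 2iL and -0.59 in FA) and above 0 in ERF KO cells (0.26 and 0.18), and the ERF effect is largest in 2iL with RAS deleted (0.92).

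The response to the FA medium also differed by genotype. In control cells 42 genes rose and 1, Hist1h1c, fell (log2 fold change -0.50, SE 0.17, adjusted p = 0.019), against 25.4% of all genes that rose and 24.1% that fell; the median was 0.40 and the sum was 26.0% higher. In RAS-deleted cells 15 rose and 5 fell, against 21.6% and 21.4%, close to the share of all genes for rises, with a sum 5.87% higher. In ERF-knockout cells 11 rose and 33 fell, against 24.6% and 22.3%, with a median of -0.28 and a sum 18.3% lower. In double-mutant cells 13 rose and 35 fell, against 28.3% and 27.4%, with a median of -0.34 and a sum 22.6% lower. The FA libraries of ERF KO cells were thus lower than their 2iL libraries, and those of control cells higher. The difference between RAS-deleted and control cells in this response was negative for 19 genes and positive for 0, against 11.7% and 12.8% of all genes, and the count was 12 when only these groups were fitted.

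Hist2h3c2 rose with FA in each of the 4 genotypes. It stood at 126, 138 and 133 CPM in control cells in 2iL against 330 and 360 CPM in FA (log2 fold change 1.38, SE 0.09, adjusted p = 1.1e-11), and at 96.9, 99.4 and 90.9 against 235, 228 and 219 CPM in RAS-deleted cells (1.25, SE 0.08, adjusted p = 4.0e-11). In ERF-knockout cells the rise was 0.21 (SE 0.08, adjusted p = 0.035) and in double-mutant cells 0.70 (SE 0.08, adjusted p = 1.1e-07). Hist3h2ba rose in each genotype too, by 2.53 in control cells (SE 0.19, adjusted p = 1.9e-10), 1.74 in ERF-knockout, 1.42 in double-mutant and 0.79 in RAS-deleted cells (SE 0.21, adjusted p = 0.0045). Hist1h2aa rose by 2.62 in control cells (SE 0.25, adjusted p = 7.3e-09) and had a log2 fold change of 0.14 in RAS-deleted cells (SE 0.27, adjusted p = 0.71), a difference of -2.48 between the genotypes (SE 0.37, adjusted p = 2.6e-05). Hist1h1t rose by 2.07 in control cells (SE 0.26, adjusted p = 4.4e-07), from 2.28 to 3.36 CPM up to 10.7 and 12.7 CPM.

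Some genes ran the other way. Hist1h1c fell in double-mutant cells from 765, 808 and 768 CPM in 2iL to 331, 353 and 349 CPM in FA (log2 fold change -1.18, SE 0.15, adjusted p = 1.7e-06), and in ERF-knockout cells by 0.76 (SE 0.15, adjusted p = 3.6e-04). In RAS-deleted cells the falls were led by Hist1h1b (log2 fold change -0.51, SE 0.15, adjusted p = 0.0080) and Hist1h2bm (-0.49, SE 0.09, adjusted p = 1.5e-04). Hist1h2br (log2 fold change -1.38, SE 0.40, adjusted p = 0.0081) and Hist2h2aa2 (-0.78, SE 0.13, adjusted p = 2.6e-05) fell and Hist1h2an (1.43, SE 0.24, adjusted p = 6.8e-05) rose in double-mutant cells, but these share much sequence with near copies.

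Position in the genome was compared as a description. Members less than 50000 bases apart formed blocks, a cut chosen after the data were seen. All counts here are for RAS deletion in FA in ERF WT cells, where 21.5% of all genes tested fell. In the block at chr13:23531050-23622558, 15 of 16 genes fell on RAS deletion in FA, with a median log2 fold change of -0.90. At chr13:23681467-23764406, 10 of 13 fell (median -0.45), at chr13:21715763-21837530 14 of 19 fell (median -0.60), and in the Hist2 block at chr3:96219865-96270132 5 of 10 fell (median -0.35). The testis pair at chr13:23933773-23934851 and the Hist3 pair at chr11:58948920-58956830 had medians of -3.09 and -2.24. The 874 other tested genes of chromosome 13 had a median of 0.077, the 1025 of chromosome 3 had -0.025 and the 1435 of chromosome 11 had -0.034. By transcript end, the median was -0.88 for the 22 genes whose annotation runs on past the stem-loop (20 fell). It was -0.46 for the 22 that end near the stem-loop (17 fell) and -0.58 for the 25 without an annotated motif (18 fell). By sequence overlap, 22 of the 25 genes with over 50% of their 31-base stretches unique fell, as did 10 of the 15 with under 10%. Of the 13 genes with the octamer 12 fell, with a median of -0.59 against -0.62 for genes without it.

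**Figure D5:**
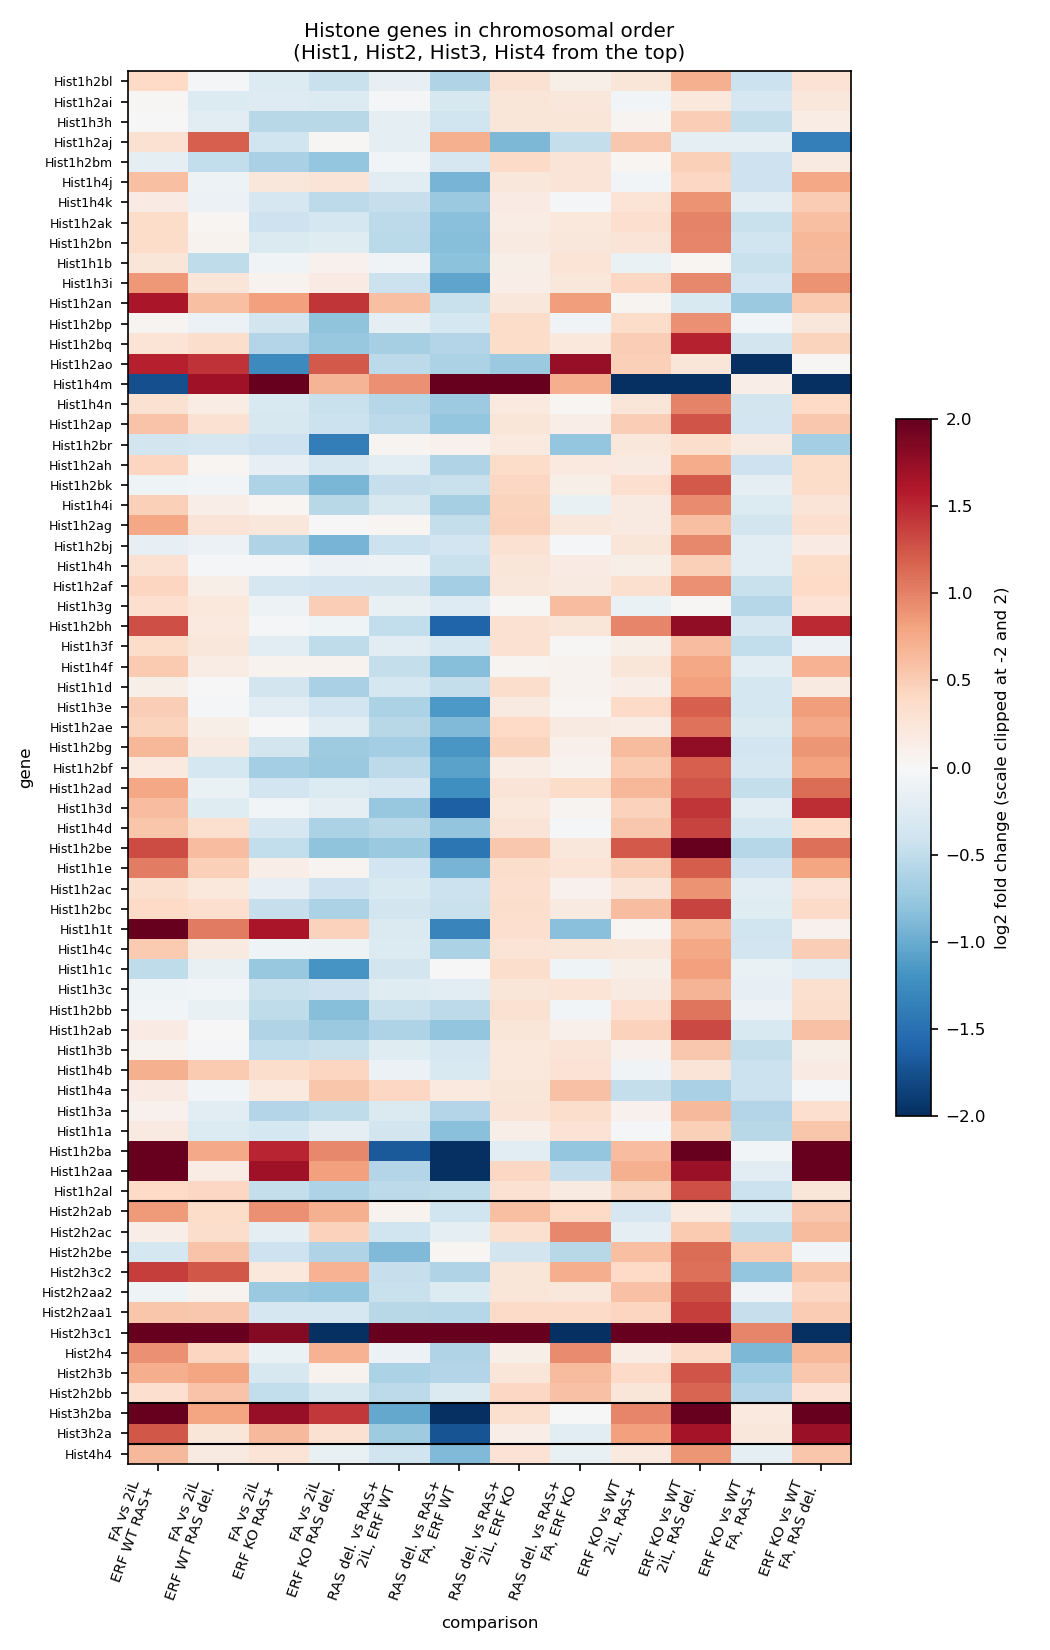
Log2 fold change of each of the 69 genes (rows, in chromosomal order) in the 12 comparisons (columns), with colours clipped at 2 in either direction. Nearly the whole RAS column of ERF WT cells in FA is negative, and nearly the whole ERF column of RAS-deleted cells in 2iL is positive.

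Divergent partners could be set side by side. Hist1h2ac and Hist1h2bc, whose starts lie 251 bases apart, had log2 fold changes of -0.42 and -0.45 on RAS deletion in FA and of 0.90 and 1.35 on ERF knockout in 2iL without RAS. Hist1h2ae and Hist1h2bg, 176 bases apart, had -0.88 and -1.17, and 1.09 and 1.77. Hist1h2ah and Hist1h2bk had -0.59 and -0.44 on RAS deletion in FA, where the H2A gene fell more, and 0.75 and 1.23 on ERF knockout in 2iL without RAS. The testis partners Hist1h2aa and Hist1h2ba had 1.72 and 2.07 on ERF knockout in 2iL without RAS. In other pairs the partners parted. On RAS deletion in FA, Hist1h2bh and Hist1h3f had -1.60 and -0.35, and Hist1h2aj and Hist1h2bm had 0.71 (SE 0.58, not called) and -0.34. Hist1h2ap and Hist1h2br had -0.78 and 0.09 there (the latter not called), but Hist1h2br is uncertain against its near copy Hist1h2bq. The sum of Hist1h2bq and Hist1h2br stood at 0.706 of its control level in FA, with no overlap. For Hist1h2ao and Hist1h2ap the sum stood at 0.583, so a parting of Hist1h2ap and Hist1h2br is not shown. On ERF knockout in 2iL without RAS, Hist1h2an and Hist1h2bp had -0.31 (SE 0.25, not called) and 0.92. Differences within pairs were not tested.

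Genes that work with the histone genes were read from lists. Among 14 genes of histone mRNA synthesis and processing, 0 were called on RAS deletion in ERF WT cells in 2iL, 0 rose and 3 fell in FA, and 3 rose and 3 fell on ERF knockout in 2iL without RAS. Of all genes, 19.8% rose and 21.5% fell in the FA contrast and 19.2% rose and 19.9% fell in the last. On RAS deletion in ERF KO cells in FA, 5 of the 14 rose and 0 fell, against 12.7% and 13.7% of all genes. Slbp, which encodes the stem-loop binding protein, was called in FA only among the RAS and ERF contrasts: it rose on RAS deletion in ERF KO cells (log2 fold change 0.47, SE 0.09, adjusted p = 5.6e-04) and on ERF knockout without RAS (0.37, SE 0.09, adjusted p = 0.0021), and fell on ERF knockout with RAS (-0.34, SE 0.10, adjusted p = 0.035). Npat, the transcriptional coactivator, stood at 60.2 CPM in control and 61.0 CPM in RAS-deleted cells in 2iL, and fell on ERF knockout in 2iL without RAS (log2 fold change -0.18, SE 0.06, adjusted p = 0.025), where the histone genes rose. Lsm11, a U7 snRNP protein, fell on RAS deletion in FA (-0.42, SE 0.12, adjusted p = 0.0074) and rose on ERF knockout in 2iL with RAS (0.31, SE 0.11, adjusted p = 0.040) and without (0.50, SE 0.11, adjusted p = 0.0012).

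Markers of cell cycle phase stood beside the histone genes as follows. Of 39 S phase genes, 0 were called on RAS deletion in 2iL in ERF WT cells (35 histone genes fell), and on ERF knockout in 2iL without RAS 11 rose and 11 fell, with a median of -0.09 (57 histone genes rose, and 19.2% of all genes rose and 19.9% fell). In FA, 27 S phase genes rose and 1 fell on RAS deletion in ERF KO cells, 0 rose and 26 fell on ERF knockout with RAS, and 3 rose and 11 fell on RAS deletion in ERF WT cells. Of all genes, 12.7% rose and 13.7% fell in the first of these, 4.37% and 5.4% in the second, and 19.8% and 21.5% in the third. On ERF knockout in 2iL with RAS, where 29 histone genes rose, 2 S phase genes rose and 7 fell (13.3% and 14.6% of all genes), and in FA without RAS, where 48 histone genes rose, 13 rose and 3 fell (21.6% and 21.3% of all genes). Pcna, the sliding clamp of DNA replication, had log2 fold changes of 0.49 (SE 0.09, adjusted p = 3.3e-04), -0.58 (SE 0.10, adjusted p = 7.8e-04) and -0.32 (SE 0.10, adjusted p = 0.011) in these 3 contrasts, and Mcm5, of the replicative helicase, 0.48 (SE 0.10) and -0.66 (SE 0.11) in the first 2. Of 51 G2 and M phase genes, 1 rose and 8 fell on RAS deletion in 2iL in ERF WT cells, and 20 rose and 8 fell on ERF knockout in 2iL without RAS, where 2.55% and 3.15% of all genes rose and fell in the former and 19.2% and 19.9% in the latter. In FA, 10 rose and 12 fell on RAS deletion in ERF WT cells, and 8 rose and 6 fell in ERF KO cells. The test of RAS by ERF called 29 S phase genes higher and 0 lower in FA (14.4% and 13.6% of all genes). In 2iL it called 1 higher and 0 lower (0.957% and 0.614%). With the FA medium, 5 S phase genes rose and 20 fell in ERF-knockout cells (24.6% and 22.3% of all genes). In double-mutant cells 15 rose and 13 fell (28.3% and 27.4%). The part of either list in the histone results was not tested.

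Histone chaperones and other histones gave a further comparison. Over all genes 2.55% rose and 3.15% fell on RAS deletion in 2iL in ERF WT cells, and 19.2% and 19.9% on ERF knockout in 2iL without RAS. Of 20 chaperone genes, 0 were called on RAS deletion in 2iL in ERF WT cells, and 2 rose and 8 fell on ERF knockout in 2iL without RAS; Nasp, a chaperone of H1 and H3, was among those that fell (log2 fold change -0.26, SE 0.09, adjusted p = 0.025). In FA, 11 chaperone genes rose and 1 fell on RAS deletion in ERF KO cells (12.7% and 13.7% of all genes), 1 rose and 9 fell on ERF knockout with RAS (4.37% and 5.4%), and 2 rose and 9 fell on RAS deletion in ERF WT cells (19.8% and 21.5%). The test of RAS by ERF in FA called 12 of the 20 higher and 0 lower (14.4% and 13.6%). Of 11 genes of histone variants made outside the clusters, 0 rose and 3 fell on RAS deletion in 2iL in ERF WT cells, and 10 rose and 0 fell on ERF knockout in 2iL without RAS, with a median of 0.51. Other contrasts gave other counts. On RAS deletion in FA in ERF WT cells, where 55 histone genes fell, 3 rose and 3 fell (19.8% and 21.5% of all genes). On ERF knockout in FA without RAS, where 48 histone genes rose, 2 rose and 4 fell (21.6% and 21.3%). On ERF knockout in 2iL with RAS, where 29 histone genes rose, 0 were called (13.3% and 14.6%). H3f3b, a gene of H3.3 with polyadenylated mRNA, fell by 0.47 on RAS deletion in 2iL in ERF WT cells (SE 0.11, adjusted p = 0.011) and rose by 0.53 on ERF knockout in 2iL without RAS (SE 0.11, adjusted p = 4.0e-04). H2afx, which makes both stem-loop and polyadenylated mRNA, rose by 0.51 on ERF knockout in 2iL without RAS (SE 0.09, adjusted p = 6.8e-05). H1f0, the linker histone of slowly dividing cells, rose on RAS deletion in FA in ERF WT cells (1.39, SE 0.15, adjusted p = 2.0e-07) and fell on ERF knockout in FA without RAS (-1.44, SE 0.13, adjusted p = 1.3e-08), opposite to most replication-dependent genes, but rose on ERF knockout in 2iL without RAS (0.76, SE 0.14, adjusted p = 1.8e-04), as most of them did. Of 9 other short RNAs without poly(A), such as Rmrp, the RNA of RNase MRP, 0 were called on RAS deletion in 2iL in ERF WT cells (median 0.07), 0 rose and 1 fell in FA, and 1 rose and 0 fell on ERF knockout in 2iL without RAS (median 0.24). Their summed level was 32286 to 39130 CPM in RAS-deleted and 45679 to 54599 CPM in double-mutant libraries in 2iL, with no overlap, and moved there in the direction of the histone genes. They fell in 5 of 9 cases with FA in double-mutant cells, where 35 histone genes and 27.4% of all genes fell, and in 3 of 9 on RAS deletion in ERF KO cells in FA, where 18 histone genes rose and 13.7% of all genes fell. Their part in the histone results was not tested.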

How the data were processed

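RNA of 23 libraries was sequenced after ribosomal RNA depletion with a strand-specific kit, per the labels' protocols. The authors deposited estimated counts per gene from Salmon (version not given in the sources used here), with read preparation by bcl2fastq 2.20.0 and fastp 0.20.0 and the build mm10, per the submitters' processing notes; a deposited table of counts equals the rounded estimates (0 cells differ). TPM values in the deposited files, computed by the authors per the file headers, were not used. Effective lengths per gene were taken from the deposited files, per the file headers, and served only to set levels per kilobase. Salmon shares reads among near copies, so single members of such sets are uncertain.

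Counts were rounded and fitted with edgeR 4.0.16 in R 4.3.3 (filterByExpr, TMM, robust quasi-likelihood test, 1 coefficient for each of 8 groups, 20372 genes tested) and adjusted by Benjamini-Hochberg. A gene was called at an adjusted p under 0.05. The SE is the absolute log2 fold change over the square root of F. The fit was tested on simulated data. Alternatives were DESeq2 1.42.0, other scaling, no low-count filter, a 2-fold minimum, Gm26917 left out, the compared groups alone, a replicate block and each library left out. Replicates differed by more than counting error (chi-square per degree of freedom of 3.04 to 44.9), so each library was counted once; this does not show that they came from separate cultures.

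Members and lists were chosen with earlier results of these data known. Named genes are the 3 highest per class, the 2 largest called rises and falls with no overlap in each of the 12 comparisons, and 5 genes with known tails or testis roles; other members, such as the partners in divergent pairs, Hist1h3g and Hist1h4j, were named after their values were seen. Sympk replaced a misspelt symbol in 1 list. The gene targeted by the deletion is not reported here. No comparison met the rule for pairing by replicate number, so no pairing was used.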

Additional observations from a re-analysis of the deposited data

Results flagged for a closer look

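Some histone genes responded differently to the same change in different groups, by a test of the difference itself (edgeR quasi-likelihood test, adjusted over all genes). The RAS effect was higher in ERF KO than in ERF WT cells in FA by 2.75 on the log2 scale for Hist3h2ba (adjusted p = 2.7e-08) and by 2.62 for Hist1h2aa (adjusted p = 2.2e-06). In 2iL the same difference was 1.34 for Hist3h2ba (adjusted p = 0.016) and 1.28 for Hist1h2be (adjusted p = 0.011).

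The change from 2iL to FA was lower in ERF KO than in ERF WT cells with RAS present by -1.80 for Hist1h2be (adjusted p = 4.6e-05) and by -1.18 for Hist2h3c2 (adjusted p = 1.5e-06). With RAS deleted this difference was -1.41 for Hist1h2be (adjusted p = 1.4e-04), -1.10 for Hist1h2bq (adjusted p = 2.5e-05), 0.61 for Hist1h4a (adjusted p = 0.015) and 0.61 for Hist1h1b (adjusted p = 0.037).

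The same change was smaller in RAS-deleted than in control cells by -2.48 for Hist1h2aa (adjusted p = 2.6e-05) and by -1.74 for Hist3h2ba (adjusted p = 9.1e-05).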

How the results depend on the processing

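No value of a named gene that passed the test changed sign in any of the settings run: of 3973 such values over all settings, 3619 kept their side of the threshold and 354 lost it. The share of all genes was not counted at a 2-fold minimum. A minimum of 2-fold reduced the number of histone genes called for the medium to 10 in control, 2 in RAS-deleted, 4 in ERF-knockout and 4 in double-mutant cells. For RAS deletion it left 2 in 2iL and 13 in FA with ERF, and 0 in 2iL and 0 in FA without ERF. For ERF knockout it left 1 in 2iL and 0 in FA with RAS, and 27 and 9 without RAS. For the tests of differences it left 24 (RAS by ERF, FA), 4 (RAS by ERF, 2iL), 6 (medium by RAS), and 7 and 5 (medium by ERF, with and without RAS). For RAS deletion in ERF KO cells in 2iL the count was 22 with no low-count filter, 18 with only the compared groups, 16 by DESeq2 and 49 with the replicate block. Fitting only the compared groups gave 18 for ERF knockout in FA with RAS and 12 for medium by RAS. The cause was not tested.

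Leaving out 1 library gave 18 to 36 called genes for RAS deletion in ERF WT cells in 2iL and 46 to 56 in FA, 0 to 7 and 9 to 15 in ERF KO cells, 24 to 32 (2iL) and 4 to 26 (FA) for ERF knockout with RAS, and 55 to 58 (2iL) and 41 to 54 (FA) without. It gave 37 to 43, 18 to 23, 34 to 41 and 45 to 48 for the medium in control, RAS-deleted, ERF-knockout and double-mutant cells. For the tests of differences it gave 49 to 57 and 21 to 40 (RAS by ERF, FA and 2iL), 13 to 24 (medium by RAS), and 30 to 42 and 27 to 36 (medium by ERF).

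With the replicate block, RAS deletion in ERF KO cells gave 31 in FA, RAS deletion in ERF WT cells gave 48 in 2iL and 44 in FA, and ERF knockout in 2iL without RAS gave 59. In no comparison with 3 pairs did every same-numbered pair correlate above 0.1. For RAS deletion in 2iL, r was 0.214, 0.0535 and 0.116 with ERF and 0.158, 0.0868 and 0.208 without ERF. Every library correlated best with its own number in 3 of 9 such comparisons, RAS deletion in ERF KO cells in 2iL and in FA and the medium in double-mutant cells, a hint from the data and not from the design.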

Other observations

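Beside the Hist3 cluster on chromosome 11 lies Hist3h2bb-ps, the row left out as a pseudogene, whose values were looked at after those of Hist3h2ba. It fell on RAS deletion in FA in ERF WT cells by 1.75 on the log2 scale (SE 0.37, adjusted p = 5.0e-04, edgeR quasi-likelihood test), and rose on ERF knockout in FA without RAS (2.23, adjusted p = 8.4e-06) and with FA in control cells (1.40, adjusted p = 0.0025). Its group means were between 0.477 and 2.65 CPM.

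The predicted gene Gm12260 of the same neighbourhood fell on RAS deletion in FA as well (log2 fold change -2.82, SE 0.48, adjusted p = 8.0e-05), as did Hist3h2a (-1.72, SE 0.13, adjusted p = 5.1e-10). Of their neighbours, Rnf187 fell (-0.62, SE 0.09, adjusted p = 1.0e-05) and Trim11 rose (0.34, SE 0.09, adjusted p = 0.0050).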
